A study of Mus musculus with 8 samples.

Results

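A set of 10 genes that mark astrocytes and Bergmann glia were examined for binding of the nuclear factor I (NFI) transcription factors in mouse cerebellar granule neuron progenitors. These were Gfap, Vim, Slc1a2, Slc1a3, Fabp7, Aldh1l1, Aqp4, S100b, Glul and Hopx. They were listed by name, and a binding peak was given to one of them when it lay in the body of the gene or when the nearest start of a protein-coding transcript, within 100 kb, was a start of that gene. Together they held 123 of the 139188 peaks in the series and, once overlapping peaks had been merged, 47 of its 46070 bound regions.

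The peaks came from chromatin immunoprecipitation followed by sequencing (ChIP-seq) on progenitors dissociated from the cerebellum at postnatal day 7. There were 3 factors, NFIA, NFIB and NFIX, each with 2 libraries, 1 from CD1 mice (replicate 1) and 1 from mice labelled Mixed, a mixed background said to resemble outbred CD1 (replicate 2). No library carried a mutation or a treatment in its labels. Of the 8 samples, 2 were inputs, 1 per background, and these were not analysed here. The NFIB antibody is from Novus Biologicals according to the samples' labels but from Sigma according to the design text, a conflict that could not be resolved. Separate animals are not stated as the source of the libraries, so the spread between libraries may be technical.

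NFI proteins bind DNA as dimers at a palindrome of TTGGC and GCCAA held apart by a short spacer, and one TTGGC can also be bound by itself. In the developing nervous system they are known for promoting the change from neurogenesis to gliogenesis and for activating astrocyte genes such as Gfap, and in granule neuron progenitors for the timing of differentiation. Bergmann glia are the radial astrocytes of the cerebellar cortex, along whose fibres young granule neurons migrate. The cells are labelled as granule neuron progenitors, the neuronal precursors of the outer cerebellar layer, and peak lists hold no RNA levels with which that label could be checked. The lists do not show from which cells of the suspension a peak came, and in such a bulk sample a site bound in few cells and a site bound weakly in many cannot be told apart.

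The lists held 7497 peaks in NfiX CD1, 16993 in NfiA CD1, 21443 in NfiX Mixed, 23541 in NfiA Mixed, 33283 in NfiB Mixed and 36431 in NfiB CD1. The median peak summit held 21 to 28 sequenced fragments. The NfiX CD1 list was the shortest, and no more regions can be common than it has peaks. Its median summit also held the fewest fragments (21). A region with a peak of all 6 libraries is called common below, and 6062 of the 46070 regions (13.2%) were common.

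The sequences at the promoters of Fabp7, Glul and Hopx are shown because peak summits lay in them, and that of S100b because it held TTGGC more often than any other window without a peak. They are the bases before the RefSeq start (build GRCm38.p6, the sequence of mm10) on the strand of the gene, as far as they touch no annotated UTR. Capitals mark TTGGC or its reverse complement GCCAA, and at S100b also the last letter of the longer NFI element TTGGCA. They cover chr10:57784673-57784880 (Fabp7, + strand), chr1:153899679-153899928 (Glul, + strand), chr5:77115124-77115373 (Hopx, - strand) and chr10:76253586-76253835 (S100b, + strand). Fabp7 and Hopx each had 1 such site in these bases, Glul had 2, and S100b had 3.
Fabp7 promoter: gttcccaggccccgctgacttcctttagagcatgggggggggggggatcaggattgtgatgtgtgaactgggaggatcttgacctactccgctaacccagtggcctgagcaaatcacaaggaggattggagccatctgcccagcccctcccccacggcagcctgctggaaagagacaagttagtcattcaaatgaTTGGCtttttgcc
Glul promoter: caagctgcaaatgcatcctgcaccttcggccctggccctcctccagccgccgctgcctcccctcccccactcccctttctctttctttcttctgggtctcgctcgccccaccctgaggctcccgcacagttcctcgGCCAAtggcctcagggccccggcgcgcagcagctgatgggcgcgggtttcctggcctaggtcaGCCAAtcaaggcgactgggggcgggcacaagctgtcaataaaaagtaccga
Hopx promoter: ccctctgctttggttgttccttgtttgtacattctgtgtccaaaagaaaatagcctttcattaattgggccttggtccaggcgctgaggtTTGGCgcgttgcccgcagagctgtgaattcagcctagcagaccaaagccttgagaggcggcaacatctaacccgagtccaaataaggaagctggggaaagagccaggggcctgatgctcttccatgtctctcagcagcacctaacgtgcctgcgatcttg
S100b promoter: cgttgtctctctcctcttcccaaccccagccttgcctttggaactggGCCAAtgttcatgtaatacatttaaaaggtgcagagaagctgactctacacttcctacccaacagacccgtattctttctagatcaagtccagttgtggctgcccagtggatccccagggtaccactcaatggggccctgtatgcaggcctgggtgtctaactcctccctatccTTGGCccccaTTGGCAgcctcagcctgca

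Sequence at a summit could be read where the summit lay in an annotated exon (GENCODE M21 transcripts, mm10). The following stretches are shown because they belong to regions bound in 6 libraries (Vim, chr2:13573949-13573978) and 5 libraries (Slc1a3, chr15:8652723-8652823), both on the + strand. The Vim stretch lies in a UTR of Vim, and TTGGCCCAGTGCCAG in it matched 9 of the 10 fixed letters of the NFI palindrome. For Vim only the bases around this TTGGC are shown out of the window at the summit. They were thus picked for the motif, and they end before the median summit at position 13573991. A match of at least 9 letters, a criterion chosen after the sequences had been seen, was found in 5.42% of the 3136 exonic summit windows of the series, which reach 50 bases to each side of the summit. The Slc1a3 stretch lies in an intron of Slc1a3 and an exon of the noncoding transcript Gm37310. It held GCCAA at its centre, which is the median summit, and TTGGC 15 bases further on.
Vim summit: gtcccacgcccctTTGGCccagtgccaggg
Slc1a3 summit: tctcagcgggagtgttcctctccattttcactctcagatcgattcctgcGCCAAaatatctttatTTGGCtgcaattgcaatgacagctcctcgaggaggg

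Binding was found at 9 of the 10 glial genes. In NfiA CD1, 7 of the 10 genes had a peak, against 25.6% of the 21938 protein-coding genes, and in NfiA Mixed 9 of 10 had one, against 33.1%. In NfiB CD1 the count was 9 of 10, against 41.2% of all genes, and in NfiB Mixed it was 8 of 10, against 40.3%. In NfiX CD1 it was 5 of 10, against 15.1%, and in NfiX Mixed 8 of 10, against 30.2%. Gfap, Vim, Slc1a2, Slc1a3 and Aldh1l1 had a peak in each of the 6 libraries. Hopx had one in 5 libraries, Fabp7 and Aqp4 in 4 each, Glul in 3 and S100b in 0. With any library counted, 9 of the 10 genes had a region, against 47.5% of all genes, and 4 of them (Gfap, Vim, Slc1a3 and Aldh1l1) had a common region, against 12.9%.

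**Figure D1:**
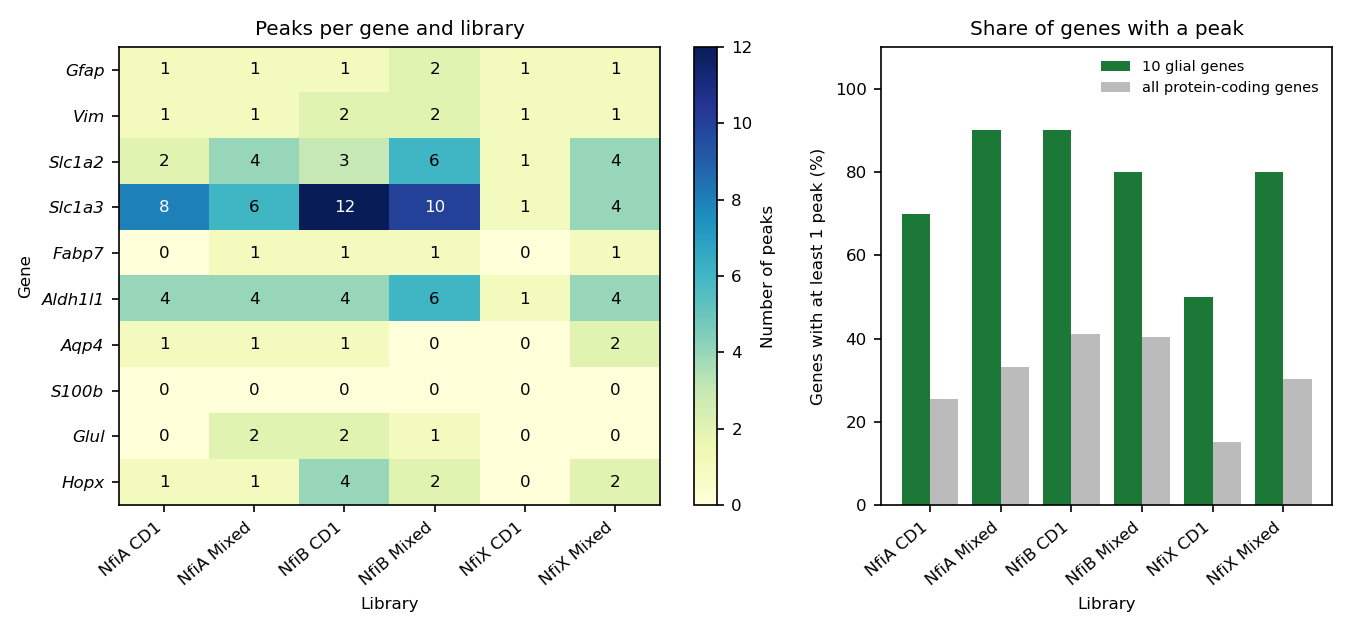
Number of peaks per glial gene (rows) in each library (columns), and the share of genes with at least 1 peak in each library, for the 10 glial genes and for all 21938 protein-coding genes. S100b has 0 peaks throughout, Slc1a3 reaches 12 peaks in NfiB CD1, and NfiX CD1 has at most 1 peak per gene.

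The number of regions per gene ran from 0 at S100b to 15 at Slc1a3, with a median of 3.00, against a median of 0 over all genes. Slc1a2 had 9 regions, Aldh1l1 7, Hopx 4, Vim, Aqp4 and Glul 3 each, Gfap 2 and Fabp7 1. By number of libraries, 20 of the 47 were seen in 1 library, 7 in 2, 6 in 3, 3 in 4, 7 in 5 and 4 in all 6. Regions of at least 5 libraries made up 23.4% of them, against 26.5% of all regions. Shares of all regions seen in fewer libraries were not computed. The common regions made up 8.51% of the regions of the glial genes, against 13.2% of all regions. Without NfiX CD1 the glial genes had 10 common regions, at 5 genes, against 20.7% of all genes. With the 7497 strongest peaks of each library they had 2, at Slc1a3 and Aldh1l1, against 6.87% of all genes.

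Longer genes and genes with distant neighbours gather more peaks under the nearest-start rule, so each count was set beside the length of sequence assigned to the gene. That length had a median of 115 kb for the 10 glial genes, against 48.9 kb for all genes. Per 100 kb of assigned sequence the glial genes had 4.09 regions, against 1.99 for all genes, and 0.348 common regions, against 0.236. The density was highest at Gfap, with 7.79 regions per 100 kb over 25.7 kb, which put it above 94.7% of genes. Slc1a3 followed with 6.55 per 100 kb over 229 kb, then Aldh1l1 with 5.67 over 123 kb and Slc1a2 with 4.89 over 184 kb. Aqp4, with 1.42 over 211 kb, lay below the pooled density of 1.99 for all genes, but above the density of 61.8% of single genes. S100b had only 15.3 kb assigned to it.

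**Figure D2:**
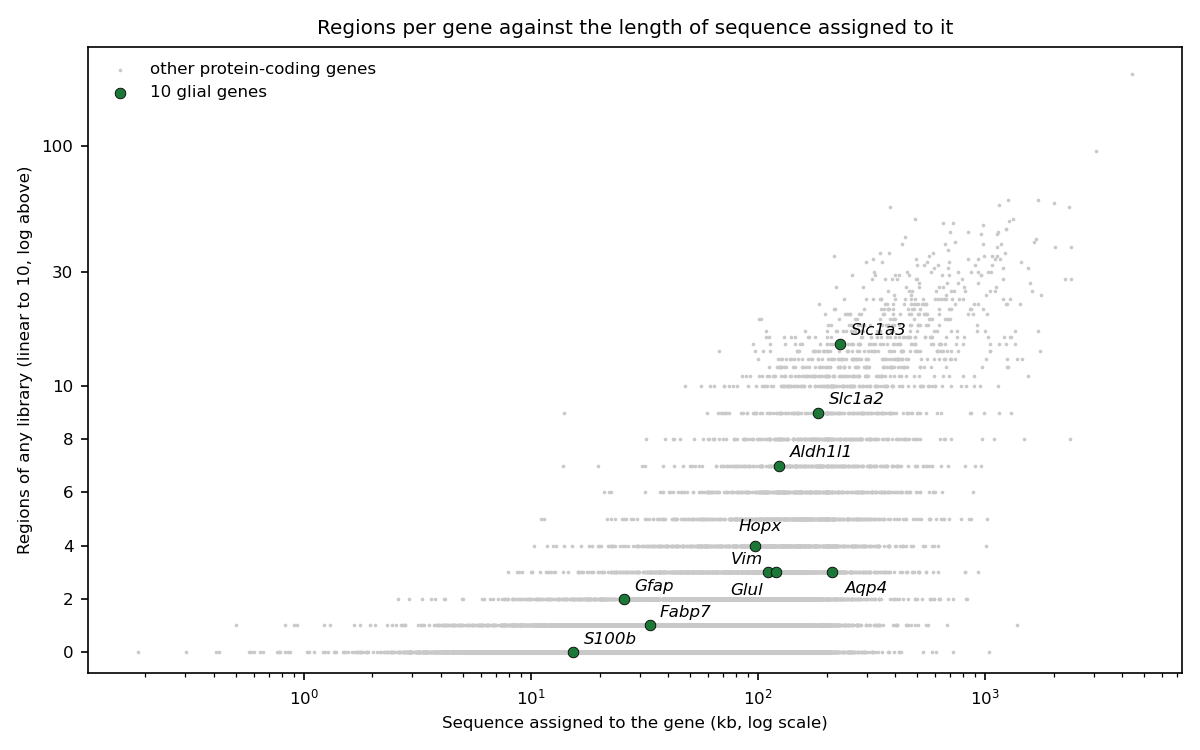
Regions of any library per gene (vertical axis, linear to 10 and logarithmic above) against the sequence assigned to the gene (kb, log scale), with the 10 glial genes in green and all other protein-coding genes in grey. Slc1a3, Slc1a2 and Aldh1l1 have both long assigned sequences and many regions, while Gfap has 2 regions on 25.7 kb.

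All genes were divided by the length of their assigned sequence into 4 groups of equal size. In the group with the longest (112 to 4435 kb), which holds Vim, Slc1a2, Slc1a3, Aldh1l1 and Aqp4, 3 of these 5 glial genes had a common region, against 33.4% of the genes in the group. Glul and Hopx fell in the group with 48.9 to 112 kb, and 0 of these 2 had one, against 12.1%. Gfap and Fabp7 fell in the group with 23.2 to 48.9 kb, and Gfap had one, against 4.18%. S100b fell in the group with the shortest sequence, where 1.77% of genes had one.

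**Figure D3:**
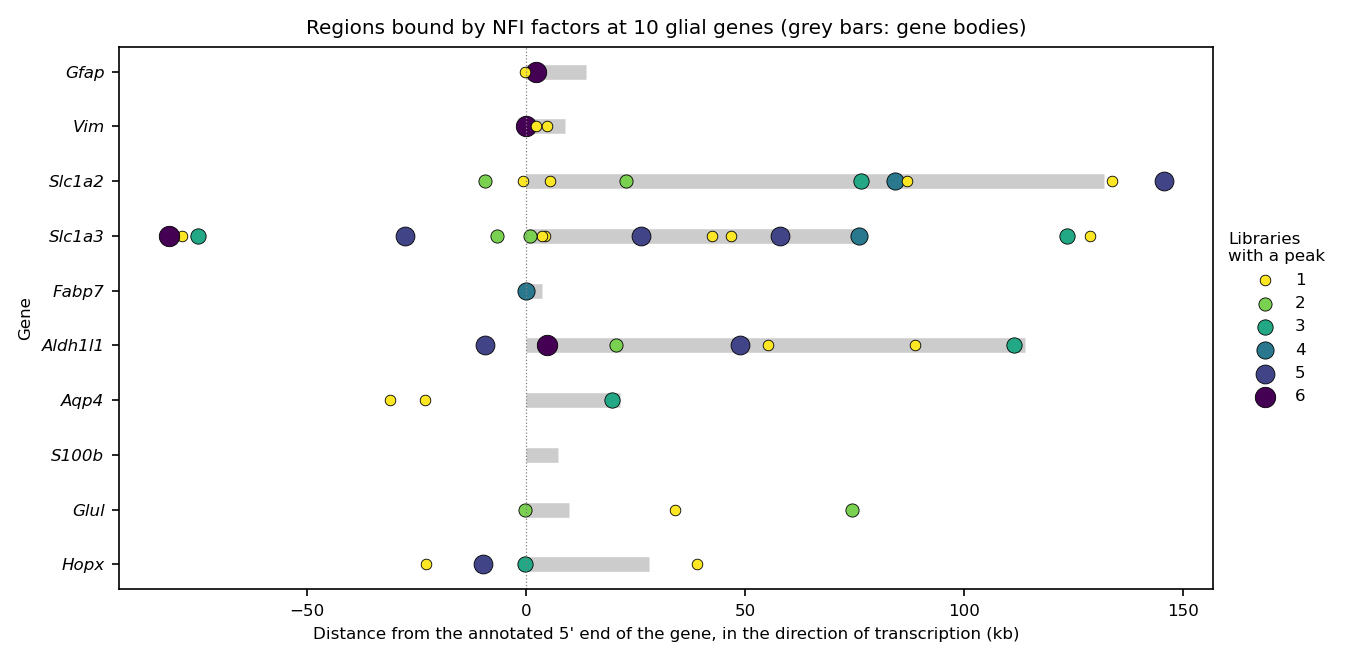
Position of each of the 47 regions along its gene, as the distance in kb from the annotated 5′ end of the gene in the direction of transcription, with grey bars for gene bodies and the colour and size of each point for the number of libraries with a peak. Regions of 5 or 6 libraries lie far from the 5′ end at Slc1a2 and Slc1a3 and at or near it at Vim and Gfap.

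Gfap and Vim encode intermediate filaments of the glial cytoskeleton, Gfap that of mature astrocytes and Vim that of radial glia and immature astrocytes. The common Gfap region (chr11:102898290-102899005, gene ENSMUSG00000020932.14) lay 1.45 kb upstream of the transcript start at position 102897200, in an intron of a longer Gfap transcript and an intron of the noncoding gene Gm26668 on the other strand. Its fold enrichment at the summit, as the authors deposited it, was 5.97 (CD1) and 6.75 (Mixed) for NFIA, 11.8 (CD1) and 7.48 (Mixed) for NFIB, and 4.29 (CD1) and 4.55 (Mixed) for NFIX. Within its own list the region stood highest in NfiB CD1, above 89.1% of the peaks, and lowest in NfiX CD1, above 11.2%. The 95% counting intervals of the fold were 9.38 to 14.6 in NfiB CD1, from 81 fragments, and 2.76 to 6.40 in NfiX CD1, from 22 fragments. The other Gfap region, of NfiB Mixed alone, lay 165 bp upstream of the start of the longer transcript, with a fold of 3.27.

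At Vim the common region (chr2:13573634-13574210, gene ENSMUSG00000026728.9) covered a transcript start, with its summit 39 bp downstream of it in a UTR and upstream of the RefSeq start at position 13574311. The fold was 4.28 (CD1) and 8.08 (Mixed) for NFIA, 8.44 (CD1) and 4.6 (Mixed) for NFIB, and 6.0 (CD1) and 7.67 (Mixed) for NFIX. For NFIA and NFIX the Mixed library stood higher in its list than the CD1 library, and for NFIB the CD1 library did: the region was above 80.2% of the NfiA Mixed peaks and 75.8% of the NfiB CD1 peaks, but above 15.5% of the NfiA CD1 peaks and 33.1% of the NfiB Mixed peaks. It was the only common region of the 10 genes within 1 kb of a start of its gene. Among all genes 1.07% had a common region there. The other Vim regions, one of NfiB CD1 and one of NfiB Mixed alone, had folds of 4.04 and 4.99.

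Slc1a2 (GLT-1) and Slc1a3 (GLAST) encode the transporters that clear glutamate from around synapses, GLAST being the main one of Bergmann glia. Slc1a3 (ENSMUSG00000005360.14, chr15:8634124-8710764) had more regions than 98.5% of protein-coding genes. Its peaks numbered 8 (CD1) and 6 (Mixed) for NFIA, 12 (CD1) and 10 (Mixed) for NFIB, and 1 (CD1) and 4 (Mixed) for NFIX. The common one (chr15:8791874-8792730) was intergenic, 81.5 kb upstream of the gene, and a limit of 50 kb leaves it out. Its fold was 6.54 (CD1) and 9.86 (Mixed) for NFIA, 13.1 (CD1) and 11.0 (Mixed) for NFIB, and 4.52 (CD1) and 11.1 (Mixed) for NFIX. In NfiX CD1 it stood above 15.6% of the peaks, with 13 fragments and a counting interval of 2.56 to 7.5, and in NfiX Mixed above 88.7%, with 32 fragments and an interval of 7.71 to 15.6. These intervals do not overlap, although folds from lists of different depth do not by themselves show a change.

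A second upstream region of Slc1a3 (chr15:8785512-8785863), 74.9 kb from the gene, had the highest mean rank of all 47, the rank being the percentile of its fold in a list. Its folds were 10.6 in NfiA CD1, 13.0 in NfiB CD1 and 9.95 in NfiB Mixed, each above 85.8% or more of its list, and the other 3 libraries had no peak there. A further 3 Slc1a3 regions were bound in 5 libraries, NfiX CD1 being the exception each time. The first, in an intron (chr15:8684175-8684619), had folds of 9.40 (CD1) and 8.49 (Mixed) for NFIA, 13.0 (CD1) and 7.42 (Mixed) for NFIB, and 7.08 in NfiX Mixed. The next, the intronic region whose summit sequence is shown above, had folds between 3.50 in NfiA CD1 and 8.63 in NfiB CD1. The last lay 27.6 kb upstream (chr15:8738217-8738544), with folds of 6.34 to 6.76 in the NFIA and NFIB libraries and 11.1 in NfiX Mixed. Within 1 kb of a start of Slc1a3 only NFIB had a peak, with folds of 5.94 in CD1 and 4.62 in Mixed.

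At Slc1a2 (ENSMUSG00000005089.15, chr2:102658659-102790784) no region was common. The one in most libraries (chr2:102804140-102804506) lay past the 3′ end of the gene, 43.1 kb downstream of its nearest start. Its fold was 5.98 (CD1) and 5.14 (Mixed) for NFIA, 9.11 in NfiB CD1, and 7.51 (CD1) and 8.43 (Mixed) for NFIX, with no peak in NfiB Mixed. This was the only region of the 10 genes bound in every library but NfiB Mixed. It rested on 12 to 23 fragments per library, and all 5 counting intervals overlapped. An intronic region 13.0 kb from a start (chr2:102742497-102743160) had a peak in all 3 Mixed libraries and in NfiB CD1, with folds of 5.24 to 8.59. The promoter region of Slc1a2 was seen in NfiB Mixed alone, with a fold of 3.68.

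**Figure D4:**
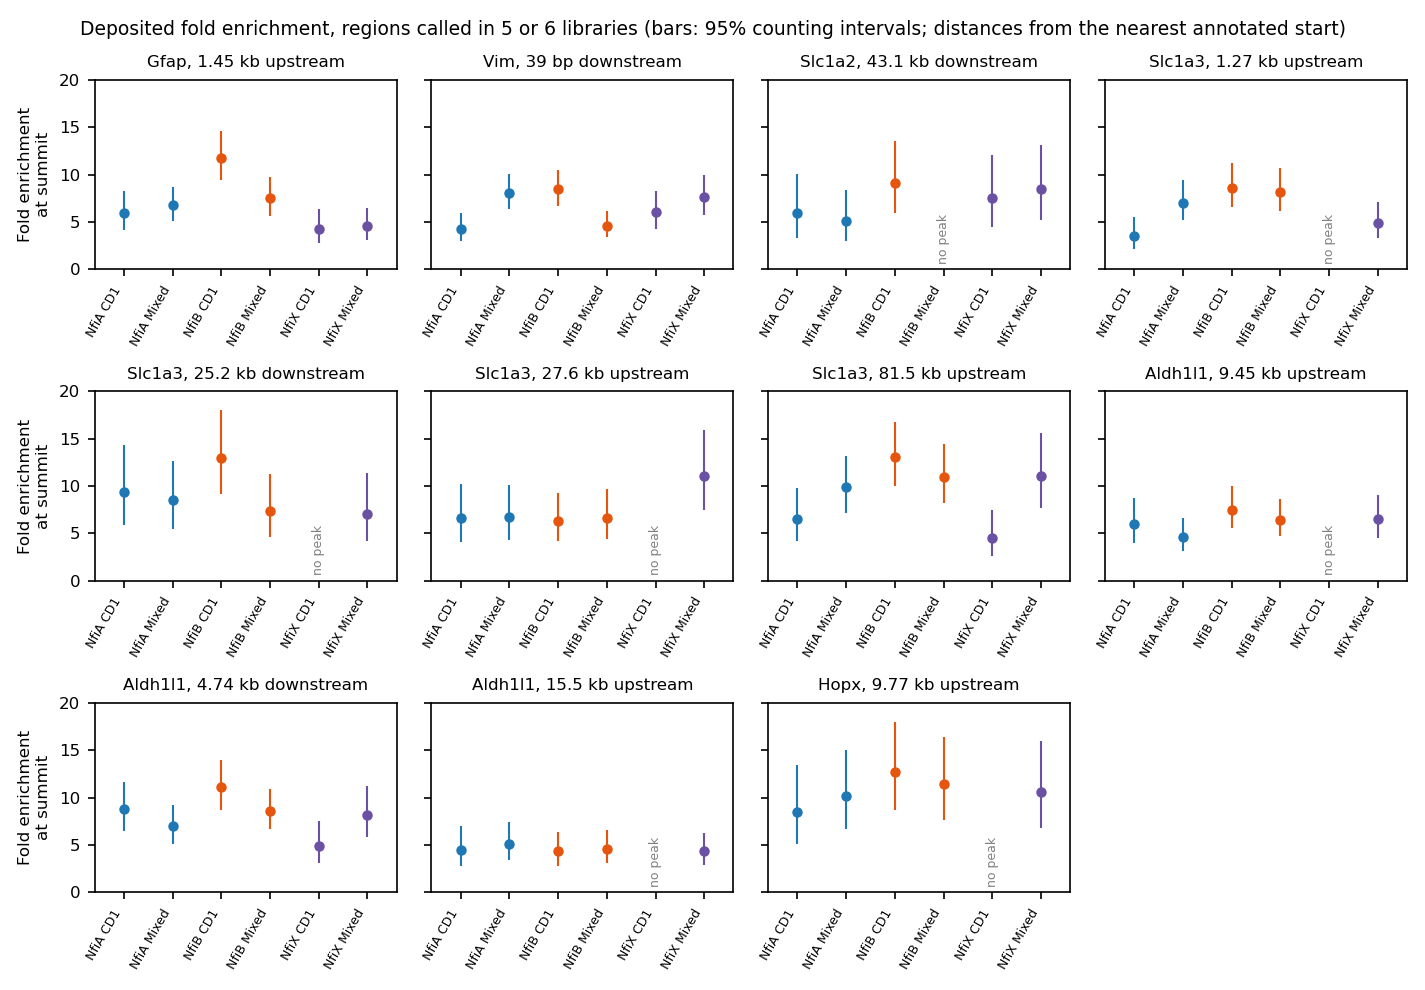
Deposited fold enrichment at the summit in each library (points, with 95% counting intervals) for the 11 regions of the glial genes with a peak in 5 or 6 libraries. NfiX CD1 has no peak in 6 of them and NfiB Mixed in 1, and the highest folds, near 13, are those of NfiB CD1 at Slc1a3 and Hopx.

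Aldh1l1 and Glul encode enzymes of astrocyte metabolism, 10-formyltetrahydrofolate dehydrogenase and glutamine synthetase. The common Aldh1l1 region (chr6:90490932-90491393, gene ENSMUSG00000030088.15) lay in an intron, 4.74 kb downstream of the start. Its fold was 8.77 (CD1) and 6.95 (Mixed) for NFIA, 11.1 (CD1) and 8.58 (Mixed) for NFIB, and 4.92 (CD1) and 8.19 (Mixed) for NFIX. It stood above 70.9% to 87.3% of the peaks of every list but NfiX CD1, where it stood above 25.2%. A further 2 regions had peaks in every library except NfiX CD1. The first was 9.45 kb upstream of the gene, with folds of 4.62 to 7.52, and the other was in the gene, 15.5 kb before an internal start, with folds of 4.33 to 5.12. Aldh1l1 and Aqp4 were, besides S100b, the genes with no region within 1 kb of a start.

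Glul (ENSMUSG00000026473.15) had a peak of NFIB alone at its promoter (chr1:153899621-153900066), where an exon of Teddm2 on the other strand is also annotated, with folds of 2.46 in CD1 and 3.06 in Mixed. These folds stood above only 1.36% and 5.32% of their lists. The summits held 39 and 43 fragments, above 67.9% and 73.5% of the summits in their lists, over a local background of 15.3 and 13.4 fragments. The Glul promoter thus ranked high in fragments and low in fold. Glul had no NFIX peak in either library. A distal region 68.4 kb downstream of a start (chr1:153974361-153974606) had folds of 6.65 in NfiA Mixed and 5.40 in NfiB CD1, and another had 4.92 in NfiA Mixed alone.

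Fabp7 (brain lipid-binding protein, ENSMUSG00000019874.11) marks radial glia and Bergmann glia, and Hopx, a small homeodomain protein without DNA binding of its own, marks astrocyte and Bergmann glia precursors. The single Fabp7 region (chr10:57784612-57785054) lay at the promoter, 31 bp upstream of a start. Its fold was 5.02 (CD1) and 5.03 (Mixed) for NFIB, 3.94 in NfiA Mixed and 4.15 in NfiX Mixed. NfiA CD1 and NfiX CD1 had no peak there, and the region stood below the middle of all 4 lists. Its counting intervals overlapped throughout, from 2.45 to 6.04 in NfiA Mixed and from 3.47 to 7.08 in NfiB Mixed.

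The main Hopx region (ENSMUSG00000059325.14, chr5:77124565-77125160) was intergenic, 9.77 kb upstream. Its fold was 8.47 (CD1) and 10.2 (Mixed) for NFIA, 12.7 (CD1) and 11.4 (Mixed) for NFIB, and 10.6 in NfiX Mixed, with no peak in NfiX CD1. It stood above 81.6% to 91.3% of the peaks in these 5 lists, a mean rank of 88.1%, although its summits held only 16 to 30 fragments, over a background of 1.01 to 1.46. At the Hopx promoter (chr5:77115192-77115490) the folds were lower, 5.65 in NfiB CD1, 3.07 in NfiB Mixed and 4.38 in NfiX Mixed, and NFIA had no peak. The 2 remaining Hopx regions were of NfiB CD1 alone.

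Aqp4 encodes the water channel of astrocyte endfeet, and S100b a calcium-binding protein of astrocytes. The main Aqp4 region (chr18:15391217-15391524, gene ENSMUSG00000024411.10) lay in a UTR, 8.63 kb from the nearest start, with folds of 6.07 in NfiA CD1, 5.62 in NfiB CD1 and 6.46 in NfiX Mixed. Its summits held only 12 to 14 fragments. Both other Aqp4 regions were intergenic and each of 1 library, with folds of 5.77 in NfiX Mixed and 4.78 in NfiA Mixed, so that no Aqp4 region was bound in both libraries of a factor. S100b (ENSMUSG00000033208.7, chr10:76253853-76261159) had no peak in any list. The nearest region, chr10:76297640-76297935, lay 36.6 kb from S100b in the body of Dip2a, 5.37 kb from a Dip2a start, with folds of 5.29 to 7.76 in 4 libraries.

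Regions near the starts of the glial genes all carried an NFIB peak, as did nearly all such regions of all genes. Of the 10 genes 7 had a region within 1 kb of a start, against 18.3% of all genes, and these regions numbered 8. All 8 had an NFIB peak, against 96.1% of the 4702 regions near a start of any gene. An NFIX peak was present at 3 of the 8, against 24.9% of the 4702, and an NFIA peak at 2, against 38.6%. NFIB was alone at 5 of the 8, against 57.8%. Without NfiB Mixed 5 of the 8 regions were left. Of the 11 regions bound in 5 or 6 libraries, only that of Vim was near a start. The other regions of the glial genes lay 1 to 10 kb from a start (17 regions) or beyond 10 kb (22 regions). Introns of the gene itself held 19 of the 47 summits and intergenic sequence 21. These last counts, by number of libraries, distance and kind of sequence, were not made over all regions, so they only describe the glial genes.

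NFIB had a peak in at least 1 library at 40 of the 47 regions, NFIA at 27 and NFIX at 19. As shares these were 85.1%, 57.4% and 40.4% of the regions of the glial genes, against 92.9%, 56.2% and 46.5% of all regions. Both libraries of the factor had a peak at 20 regions for NFIB (42.6%, against 56.6% of all regions), at 12 for NFIA (25.5%, against 29.8%) and at 5 for NFIX (10.6%, against 14.9%). Regions of a single factor numbered 16 for NFIB, 5 for NFIA and 2 for NFIX, and 3 of the 16 were seen in both NFIB libraries. The share of all regions that were of a single factor was not computed, so these counts do not set the glial genes apart. The orders of the factors follow the lengths of the lists.

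Among the 7 regions bound in 5 libraries, 6 lacked NfiX CD1 alone, 3 of them at Slc1a3, 2 at Aldh1l1 and 1 at Hopx. Over the whole series 5581 regions lacked only that library, and the next highest count for a single library, NfiA CD1, was 255. The Mixed libraries had 15 regions of the glial genes to themselves (31.9%, against 19.3% of all regions), and the CD1 libraries 8 (17.0%, against 19.1%). All 3 Mixed libraries had a peak at 13 of the 47 regions (27.7%, against 34.4% of all regions), and all 3 CD1 libraries at 5 (10.6%, against 14.1%). The backgrounds differ in 1 library per factor, and the CD1 libraries include the shortest list, so background and library cannot be told apart.

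Averaged over the libraries, peak folds at the glial genes differed from those of the rest of each list by less than the spread between libraries, while the lists differed among themselves. The median fold of their peaks was 6.13 in NfiA CD1, against 5.79 for the other peaks of that list, and 5.87 in NfiA Mixed, against 5.51. For NFIB it was 5.97 in CD1, against 5.76, and 4.89 in Mixed, against 5.52. For NFIX it was 4.92 in CD1, against 5.98, and 6.46 in Mixed, against 6.03. On the log2 scale the glial genes minus the rest averaged -0.02 ± 0.17 (SD, n = 6 libraries), higher in 4 libraries and lower in 2. It ran from -0.28 in NfiX CD1, where the glial genes had 5 peaks, to 0.10 in NfiX Mixed. Of the 123 peaks, 65 stood above the median of their list and 7 above the 90th percentile.

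The 10 genes took 0.106% of the peaks of NfiA CD1 (18 peaks, 95% Wilson interval 0.0670 to 0.167), 0.0892% of NfiA Mixed (21, 0.0584 to 0.136) and 0.0823% of NfiB CD1 (30, 0.0577 to 0.118). In NfiB Mixed the share was 0.0901% (30, 0.0631 to 0.129), in NfiX CD1 0.0667% (5, 0.0285 to 0.156) and in NfiX Mixed 0.0886% (19, 0.0567 to 0.138). All 6 intervals overlapped.

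RefSeq promoter windows, from 250 bases before the start to 50 after it, were found for 9 of the 10 symbols, 10 windows in all, with 2 for Hopx. The NFI motif TTGGC, on either strand, was present in 6 of the 10 windows, those of Glul, Vim, Slc1a2, S100b, Fabp7 and the upstream start of Hopx, against 46.7% of 32851 windows. The longer NFI element TTGGCA was present in that of S100b, against 14.1% of windows, and the full palindrome in none of the 10, against 0.0365%. TTGGC overlapped a CCAAT box, as ATTGGC, in the windows of Vim, Fabp7, Glul and S100b. A peak summit lay inside the windows of Glul, Vim (NfiA CD1 alone), Fabp7 and the upstream start of Hopx. All 4 held TTGGC, whereas of the 6 windows with no summit 2 held it. Some of the windows with no summit were at internal starts, not at the 5′ end of the gene. The start was at 102706438 for Slc1a2, 90550793 for Aldh1l1 and 102897200 for Gfap. The 5′ ends of these genes are at 102658659, 90486427 and 102900912. Over all windows 62.2% of the 2054 with a summit held TTGGC, against 45.7% of the 30797 without.

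The closest matches to the palindrome in the promoter windows reached 9 of 10 letters at S100b (TTGGAACTGGGCCAA, at position -213 from the start), and 8 at Fabp7 (TTGGCTTTTTGCCCG, at -55) and Hopx (TTGGCGCGTTGCCCG, at -160). At least 9 letters matched in 0.907% of all windows, so S100b had a near match and no peak. Other motifs were searched in the same windows, on either strand. The CCAAT box, CCAAT, the letters of the general factor NF-Y, was present in 8 of the 10 windows, against 37.4% of all windows. TGGGAA, the element of the Notch effector RBPJ, was present in 4, against 25.6%. The E-boxes CAGCTG and CAGATG, letters bound by basic helix-loop-helix factors, were present in 3 and 1, against 16.3% and 17.2%. The TATA box TATAAA was present in 2, against 13.6%, and the AP-1 element TGANTCA in none, against 7.81%. A palindrome with the letters of the NFI one scrambled was also in none, against 0.00913%. A STAT element, TTCNNNGAA, bound by STAT factors, which carry astrocyte-inducing cytokine signals, was present in the windows of Gfap and Slc1a3, against 8.30% of windows. In exons, windows of 50 bases to each side of a summit could be read for 6 regions of the glial genes, and 3 of these held TTGGC, against 44.2% of 3136 regions. With 100 bases to each side 2 of 5 did, against 63.2% of 2394. A match of letters describes these windows and does not show a bound site.

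The glial list was set beside a list of other genes of glial fate or astrocyte function and lists of genes of other cell types. Of the 10 glial genes 4 had a common region, as did 8 of 42 other genes of glial fate or astrocyte function and 1 of 12 oligodendrocyte lineage genes. The count was 8 of 16 for granule progenitor genes, 6 of 12 for Purkinje cell genes and 3 of 12 for microglia and vessel genes, against 12.9% of all genes. The median gene of the glial list had 3.00 regions, against 7.00 in the granule progenitor list and 2.00 in the other glial list. Regions of any library numbered 4.09 per 100 kb at the 10 glial genes, 4.15 at the other glial genes and 7.65 at the granule progenitor genes. The Purkinje cell, microglia and vessel, and oligodendrocyte lists had 2.11, 2.14 and 2.34 per 100 kb, against 1.99 for all genes. Common regions per 100 kb numbered 0.348 at the 10 glial genes, 0.364 at the other glial genes and 0.670 at the granule progenitor genes. The Purkinje cell, microglia and vessel, and oligodendrocyte lists had 0.166, 0.229 and 0.117, all below the 0.236 of all genes. Of the 18 common regions of the other glial list, Nfib and Nfia, genes of NFI factors themselves, held 6 each. The densities of that list without Nfib and Nfia were not computed.

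**Figure D5:**
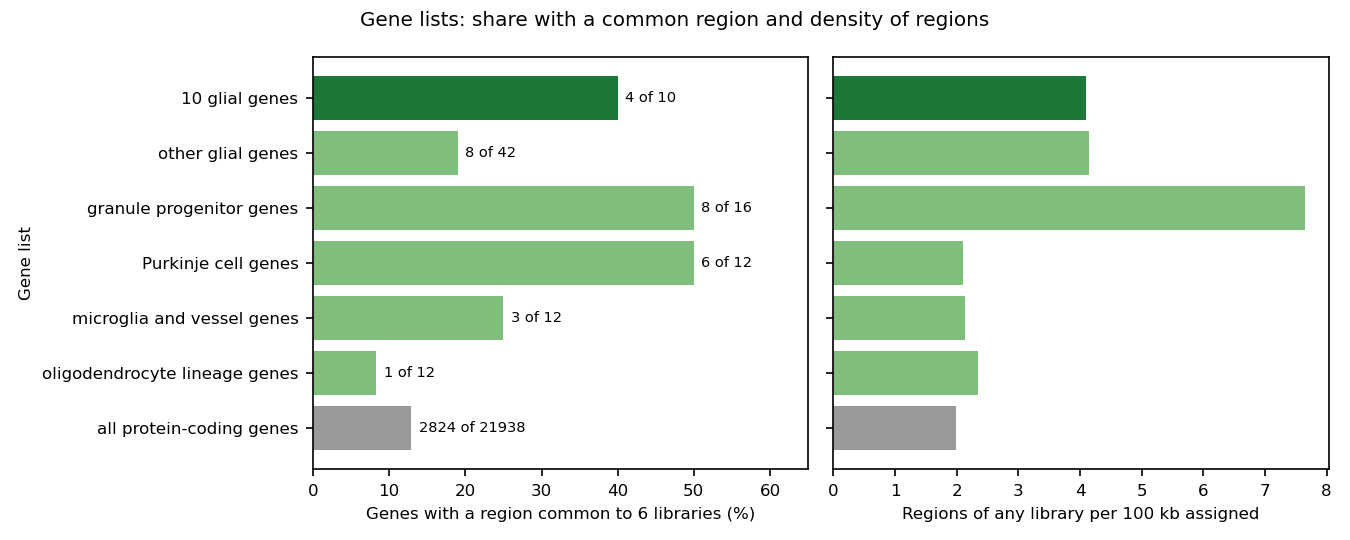
Share of genes with a region common to the 6 libraries (left, in percent, with counts) and regions of any library per 100 kb of assigned sequence (right), for the 10 glial genes, the other lists and all protein-coding genes. The 10 glial genes lie between the granule progenitor list and all genes in both panels. The Purkinje cell list also lies above them on the left, and the other glial list slightly above them on the right.

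The leading common regions of the 8 other glial genes that had one ranked on average at 52.6% to 98.0% of their lists, a range that overlapped the 52.2% to 72.8% of the glial genes described here. Nfib and Nfia, which encode NFI factors themselves, each had 6 common regions, the leading ones with folds of 12.6 to 21.9 and a mean rank of 98.0% at Nfib and of 11.8 to 19.6 and 94.7% at Nfia. Hes1, a Notch effector that maintains progenitors, had 1 with folds of 8.12 to 14.6 and a mean rank of 88.3%. The mean ranks were 84.3% at Id4, which encodes an inhibitor of basic helix-loop-helix factors, 82.0% at Tnc, which encodes the matrix protein tenascin-C, and 73.6% at Lifr, which encodes the receptor for leukaemia inhibitory factor. S1pr1, a sphingosine-1-phosphate receptor gene, and Sparc, a matrix protein gene, both named after their values were seen, had 61.2% and 52.6%. Those of Slc1a3, Aldh1l1, Vim and Gfap had mean ranks of 72.8%, 70.3%, 54.3% and 52.2%. Distances to a start of the gene differed widely, from 120 kb at Nfib, 96.1 kb at Id4 and 95.7 kb at Tnc to 1.10 kb at Nfia. The distance was 47.4 kb at Hes1, 27.9 kb at Lifr, 22.8 kb at S1pr1 and 1.31 kb at Sparc, and 81.5 kb at Slc1a3. At Gli2 and Ptch1, which act in Sonic hedgehog signalling in granule progenitors, the leading common regions had folds of 7.59 to 19.0 and 6.98 to 18.1.

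The rule left out 14 regions within 100 kb of the glial genes, because another gene had the nearest start. Of these, 4 lay near Gfap, 3 near Slc1a2, 2 each near Slc1a3 and Fabp7, and 1 each near Aldh1l1, S100b and Glul. The one in most libraries, chr6:90470945-90471318, lay in Klf15, 15.3 kb from Aldh1l1 and 4.02 kb from a Klf15 start, with folds of 3.27 to 7.91 in every library except NfiX CD1. One Aldh1l1 region (chr6:90597575-90597959) was counted only because it lay in the gene body, with a start of another gene nearer to its summit. It had folds of 5.87 in NfiA Mixed, 6.05 in NfiB Mixed and 4.72 in NfiX Mixed.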

How the data were processed

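ChIP-seq for NFIA, NFIB and NFIX was made from postnatal day 7 mouse granule neuron progenitors. Per the submitters' processing notes, Bowtie2 2.2.6, SAMtools 1.4.1, MACS2 2.1.0 and build mm10 were used. The control, the read filters and the peak threshold were not given in the sources used here. Every library has its own peak list, deposited with a fold enrichment (a ratio to local background) and with p and q as −log10 values, all made by the authors. The deposited folds were used only to describe and rank peaks within a list, and ranks are percentiles of fold in the list.

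Summit fragments and local background were recovered as the whole number and Poisson mean that give the deposited fold and p-value, for 100% of peaks within 0.002 on the −log10 scale. Intervals (95%, exact Poisson for folds, Wilson for shares) cover counting error only. Peaks overlapping by 1 bp were merged into regions. Genes and starts came from GENCODE M21, and a start is that of any transcript of a protein-coding gene. The members and lists were chosen with earlier results of these data known, so no test was made over them. All 10 members are named, and of each other list at most 6 genes with the highest-ranked common region. S1pr1 and Sparc of the other glial list are exceptions, named after their values were seen. Python 3.11.15, pandas 2.3.3, numpy 2.4.6 and SciPy 1.17.1 were used. Fragment recovery, merging and the assignment of peaks to genes were tested on simulated data, and the other steps were not.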

Additional observations from a re-analysis of the deposited data

How the results depend on the processing

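No result comes from a test, so no paired test was made. The log2 fold difference was formed within each library. Of 157 recomputed values, 138 kept to within 1.5 times the count, or 1 SD of the mean, as first processed. With the 7497 strongest peaks of each library, the glial genes had 14 regions in place of 47, 2 common regions in place of 4, 2 genes with a common region (Slc1a3 and Aldh1l1; all genes 6.87%), 1 promoter region in place of 8 and 27 gene-library pairs with a peak in place of 46. The other glial, granule progenitor and Purkinje cell lists then had 4, 3 and 2 genes with a common region. With a limit of 10 kb, the other glial list had 3 and the granule progenitor list 5, against 8.87% of all genes. Of the 10 glial genes 3 (Gfap, Vim and Aldh1l1) had a common region at that limit. With 5 of 6 libraries counted as common, the 10 genes had 11 common regions (23.4% of theirs, against 26.5% of all regions) at 6 genes (all genes 21.4%), the other glial list 18 genes (of 42) and the oligodendrocyte list 2. With the Mixed libraries only, an alternative chosen after seeing the data, there were 13 common regions at 7 genes (all genes 25.6%).

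Leaving out 1 library at a time gave 4 to 10 common regions at the 10 genes, 10 of them without NfiX CD1, when 20.7% of all genes had one, and 5 to 8 promoter regions, 5 of them without NfiB Mixed. It gave 40 to 47 regions, 4 to 5 genes with a common region, 37 to 41 gene-library pairs and a mean log2 fold difference of -0.05 to 0.03. The other lists had 8 to 18 (other glial, 18 without NfiX CD1), 8 to 10 (granule progenitor), 1 to 2 (oligodendrocyte, 2 without NfiX CD1) and 3 to 4 (microglia and vessel) genes. With peaks at a −log10 q of 5 or more, Slc1a3 had no common region, and 3 of the 10 genes did, against 11.4% of all genes. A region missing from the NfiX CD1 list, the shortest, is not shown to be unbound, and why that list is short was not tested.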
